A study of Mus musculus with 4 samples.

Results

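The genes examined were those of the 2 cholinesterases, Ache and Bche, and of the 2 proteins that hold them in place, Colq and Prima1. These 4 genes were selected on their function and on the response of some of them to EDA-A2 in these same libraries, so their own EDA-A2 contrast is given as a description and was not tested further. They are 4 of the 53647 genes in the count tables. Of the 4, 3 were among the 15173 genes that passed the filter on low counts, and Prima1 was not.

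The study exposed mouse primary myotubes, made from wild-type (WT) limb muscle myoblasts of pups 2 to 3 days old, to EDA-A2, a ligand of the TNF family that binds the receptor EDA2R. Myoblasts were differentiated in 5% horse serum for 48 h, EDA-A2 was added at 250 ng/mL for 24 h, and cells were harvested at 72 h. The control group was cultured alike and is labelled control, and what it received in place of EDA-A2 is not given in the sources used here. Each condition had 2 libraries of polyadenylated RNA, and no label says whether they came from separate animals or cultures, so the p-values below measure the spread between these samples, which may be technical.

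Acetylcholinesterase, encoded by Ache, ends transmission at the neuromuscular junction by splitting acetylcholine, and butyrylcholinesterase, encoded by Bche, splits acetylcholine and other choline esters more slowly. In muscle, enzyme tetramers are fixed in the synaptic basal lamina by the collagen ColQ, whereas in brain and on cell membranes they are held by the proline-rich membrane anchor PRiMA, encoded by Prima1. Both anchors bind the enzyme in the same way. A tail at the carboxyl end of the enzyme, rich in tryptophan, wraps around a stretch of prolines in the anchor.

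These interacting stretches are shown because they are what joins the enzymes to the anchors measured here. They were read from the GRCm39 genome along the canonical GENCODE transcript of each gene, 5′ to 3′ on the coding strand, and all of it is coding exon. In the enzymes the last 40 codons are given, with tryptophan codons (TGG) in capitals.
Ache tail: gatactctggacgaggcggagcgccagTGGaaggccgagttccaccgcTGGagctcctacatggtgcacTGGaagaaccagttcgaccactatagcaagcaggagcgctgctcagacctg
Bche tail: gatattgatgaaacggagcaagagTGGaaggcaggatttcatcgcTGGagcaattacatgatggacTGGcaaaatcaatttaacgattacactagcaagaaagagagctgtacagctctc
The Ache tail is on the plus strand of chromosome 5, its first base at 137291599 and the other 119 bases at chr5:137292379-137292497 in the last coding exon. The Bche tail is on the minus strand at chr3:73547253-73547372. Each tail holds 3 tryptophan codons. The encoded tails matched at 24 of 39 aligned residues (61.5%), and the whole proteins, of 614 and 603 codons, at 312 of 600 (52.0%).

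In the anchors the 20 codons richest in proline are given, with proline codons in capitals. For Colq the search was limited to the part before its collagen repeat.
Colq stretch: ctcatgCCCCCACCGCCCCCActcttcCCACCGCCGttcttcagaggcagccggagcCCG
Prima1 stretch: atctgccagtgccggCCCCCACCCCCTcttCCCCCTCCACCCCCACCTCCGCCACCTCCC
The Colq stretch, codons 54 to 73 of 417, is on the minus strand at chr14:31275697-31275756 and holds 9 proline codons. The Prima1 stretch, codons 51 to 70 of 153, is on the minus strand at chr12:103201864-103201923 and holds 14. In Colq an unbroken collagen repeat of 59 triplets begins at codon 95. The deposited values are counts per gene, so the splice forms of Ache, of which only some carry this tail, were not measured apart.

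The libraries were of nearly equal depth, with 29444155 to 29746863 read pairs counted on genes. EDA-A2 libraries were higher at 371 genes (2.45% of those tested) and lower at 323 (2.13%) at an adjusted p-value under 0.05 by edgeR's quasi-likelihood test, and these are termed DEGs. All 8 myotube markers were expressed. Genes of dividing cells and myoblasts were expressed as well, such as Mki67 (7583 to 9242 counts) and Pax7 (1193 to 1341 counts). The libraries may therefore hold cells other than myotubes. The summed level of the 8 myotube markers was lower in the treated libraries. It was 21173 and 20902 CPM (counts scaled to a library of fixed size) in control and 15939 and 15818 CPM after EDA-A2. Myh3 and Acta1 had the highest counts of these markers and weighed most in the sum. Of these 8, 4 fell (Myh3, Acta1, Actn2 and Myh8, with log2 fold changes of -0.57, -0.52, -0.65 and -0.38). Ckm, Myog, Tnnt3 and Mymk, at -0.36, -0.18, -0.16 and -0.01, did not pass. In the myoblast list Vcam1 rose by 0.53 and Cdh15 fell by 0.47, both on the log2 scale, and the summed level of the 5 genes was 858 and 868 CPM in control and 991 and 989 CPM after EDA-A2. Most of that sum was Itga7, which did not pass, with 19022 and 19598 counts in control and 23313 and 23528 after EDA-A2. The part of these marker differences in the results below was not tested, and in bulk RNA fewer cells of a type and less RNA per cell cannot be told apart.

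Ache (ENSMUSG00000023328) spans 137285781 to 137292728 on the plus strand of chromosome 5 and has 20 annotated transcripts. It had 927 and 978 counts in control replicates 1 and 2, and 2518 and 2242 in EDA-A2 replicates 1 and 2. Both treated libraries were well above both controls. Scaled by edgeR's TMM factors to a common library size, Ache had 970.7 ± 22.0 normalized counts in control and 2336 ± 187 after EDA-A2 (SD, n = 2), 2.41-fold more. The lower treated library stood 2.23-fold above the higher control. The fitted log2 fold change was 1.27 (SE 0.08), the 92nd highest of the 15173 genes tested.

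Bche (ENSMUSG00000027792), on the minus strand of chromosome 3 from 73543141 to 73615748, was a minor transcript. Control libraries held 26 and 44 counts of it, and treated libraries 63 and 68. The treated libraries agreed closely and lay above both controls, and the controls differed from each other. Normalized counts were 35.6 ± 12.4 in control and 64.3 ± 3.59 after EDA-A2 (SD, n = 2), and the fitted log2 fold change was 0.85 (SE 0.28). Bche was not a DEG. Its value rested on which control was used, at 0.54 without control replicate 1 and 1.26 without control replicate 2.

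Colq (ENSMUSG00000057606), on the minus strand of chromosome 14 from 31243665 to 31313300, encodes the collagen tail. Counts were 503 and 575 in control and 2060 and 2185 after EDA-A2. The libraries of a condition lay close together and the conditions far apart. Normalized counts were 549.1 ± 43.5 in control and 2083 ± 90.7 after EDA-A2 (SD, n = 2), 3.79-fold more, and the lower treated library was 3.48-fold above the higher control. The fitted log2 fold change was 1.92 (SE 0.09). Colq was 32nd of the 15173 genes by fitted change and 28th of the 371 DEGs that were higher, where Ache was 56th.

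Prima1 (ENSMUSG00000041669), on the minus strand of chromosome 12 from 103160706 to 103209030, encodes the membrane anchor. Only 4 and 7 counts were found in control and 7 and 6 after EDA-A2. The conditions overlapped, all 4 counts were close to the 3 counts that a count of 0 allows, and a difference was not detectable at this depth. Colq counts exceeded those of Prima1 126-fold and 82.1-fold in the control libraries and 294-fold and 364-fold after EDA-A2.

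**Figure D1:**
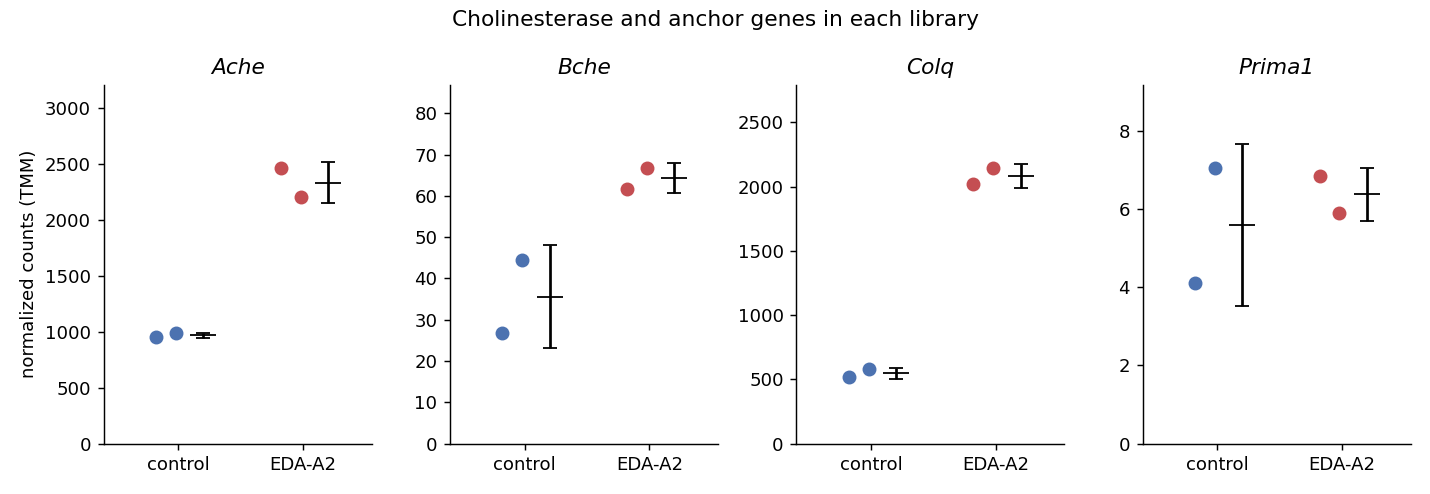
Normalized counts (linear axes, each from 0) of Ache, Bche, Colq and Prima1 in each library, with points for libraries and bars for mean ± SD (n = 2 per condition). Treated libraries lie above control for Ache (2336 against 970.7), Colq (2083 against 549.1) and Bche (64.3 against 35.6), and overlap with control for Prima1.

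Of the 3 genes tested, 2 (Ache and Colq) were DEGs and both were higher, beside 2.45% of all genes tested. All 3 had treated libraries that did not overlap the controls, as did 22.7% of all genes tested. Since the genes were chosen with this contrast known, nothing is read from these counts. With all libraries in the fit, every scaling, filter and tool tried left Ache and Colq as DEGs, and Ache lay between 1.26 and 1.32 and Colq between 1.92 and 1.98 on the log2 scale. Without control replicate 1 neither gene was a DEG, nor without control replicate 2. In those fits edgeR called 0 of 15704 and 0 of 15716 genes, with 2179 and 2449 at an unadjusted p under 0.05, and Ache was at 1.25 and 1.29 and Colq at 1.85 and 2.01.

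**Figure D2:**
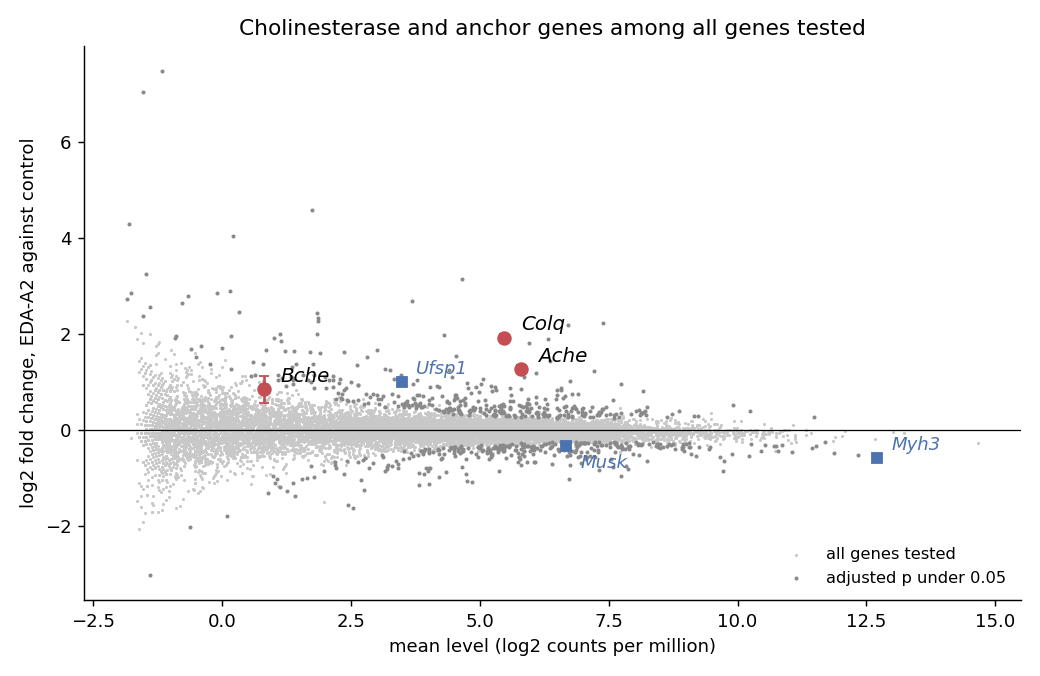
Fitted log2 fold change (EDA-A2 against control) against mean level (log2 CPM) for the 15173 genes tested, with Ache, Colq and Bche in red (bars, SE) and Ufsp1, Musk and Myh3 as blue squares. Colq at 1.92 and Ache at 1.27 lie above most genes of similar level, and Bche at 0.85 lies among genes of low level and wide spread.

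Levels of different genes were compared per length, as TMM-scaled CPM divided by the kilobases of exon of each gene. On that scale Ache was highest, at 6.17 and 6.38 in control and 16.0 and 14.2 after EDA-A2. Colq was next, at 3.22 and 3.61 in control and 12.6 and 13.4 after EDA-A2. Bche lay at 0.134 and 0.222 in control and 0.309 and 0.335 after EDA-A2, and Prima1 between 0.0322 and 0.0552 in all libraries. The order of the 4 genes was therefore the same in every library, and no neighbours in it overlapped within a condition.

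The gap between enzyme and anchor was narrower in the treated libraries. There were 1.84 and 1.70 Ache counts for each Colq count in control, and 1.22 and 1.03 after EDA-A2. Per length the ratio was 1.92 and 1.77 in control and 1.27 and 1.07 after EDA-A2. Using the longest transcript in place of all exons, it was 2.16 and 1.99 in control and 1.43 and 1.20 after EDA-A2. A length is 1 constant for each gene, so it sets the size of the ratio and has no bearing on the difference between conditions.

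Ache made up nearly all of the cholinesterase transcript. Its share of the summed level of Ache and Bche was 97.9% and 96.6% in control and 98.1% and 97.7% after EDA-A2, with conditions that overlapped. The summed level of both enzymes per length was 6.31 and 6.60 in control and 16.3 and 14.6 after EDA-A2. By counts, Ache exceeded Bche 35.7-fold and 22.2-fold in control and 33.0-fold or more after EDA-A2.

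**Figure D3:**
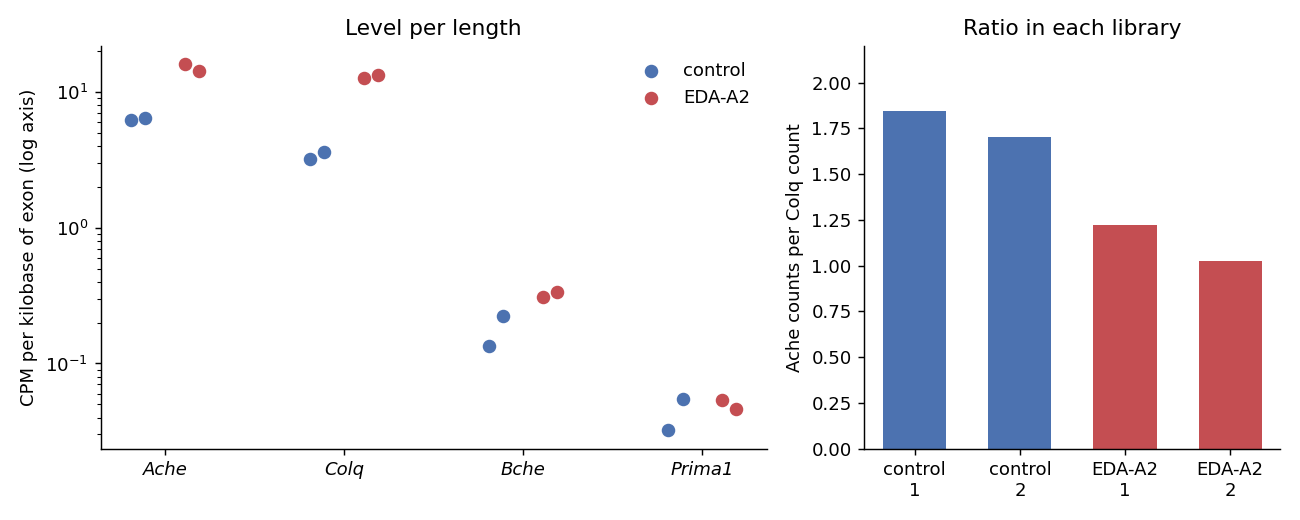
Left, level per length (CPM per kilobase of exon, log axis) of the 4 genes in each library. Right, Ache counts for each Colq count in each library, 1.84 and 1.70 in control and 1.22 and 1.03 after EDA-A2.

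Genes near or within each locus were examined because the strand option of the counting is not given in the sources used here. Ufsp1, which encodes a protease for the ubiquitin-like modifier UFM1, starts 163 bases past the end of Ache on the same strand. It had 203 and 225 counts in control and 504 and 391 after EDA-A2. Ufsp1 rose, with a log2 fold change of 1.01 (SE 0.14, adjusted p = 0.00044 by edgeR's quasi-likelihood test), and it held 0.219, 0.230, 0.200 and 0.174 counts for each Ache count in the 4 libraries. Transcription running on from Ache and transcripts of Ufsp1 itself cannot be told apart in these counts. The span of Srrt, on the opposite strand, comes within 705 bases of Ache and so reaches into that of Ufsp1 (137292891 to 137293927). Reads of Srrt and Ufsp1 could therefore be mixed as well. The microRNA gene Mir8116, inside Ache on the same strand but outside its exons, had 12 and 11 counts in control and 31 and 29 after EDA-A2, with a log2 fold change of 1.32 (SE 0.38) that did not pass (adjusted p = 0.0656, edgeR). An antisense noncoding gene, Gm57304, overlaps 302 exon bases of Ache and was not counted in the tables, so reads of the 2 genes could be mixed.

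The other neighbours of Ache moved less or were rare. Srrt, 705 bases from Ache on the opposite strand, had a log2 fold change of 0.16 (adjusted p = 0.357, edgeR). Muc3a had 2 to 19 counts and Muc12 had 0 in all libraries. At the Colq locus, Gm49387 shares 199 exon bases with Colq on the same strand, and it had 0 counts in all libraries. Mettl6, 26654 bases from Colq, rose by 0.32 (adjusted p = 0.0366, edgeR), a call that was lost in DESeq2, with no filter and with any 1 of the 4 libraries left out, whereas Hacl1 (0.08), Eaf1 (0.13) and Btd (0.24) did not pass. Around Bche, Slitrk3 had 5 to 14 counts and did not pass, Sis had 2 to 6, and Zbbx and Serpini2 had 0. Around Prima1, Asb2 had a log2 fold change of -0.04 and did not pass, Unc79 had 0 to 4 counts, and Cox8c and Fam181a had 0.

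The 250 bases before the canonical start of Ache and Colq were searched on both strands for short motifs known from muscle and synapse genes, because these genes were higher together. A match is a description and not a binding site. Both windows held 2 E-boxes (CANNTG, the core bound by myogenic factors). At least 1 E-box was found in 64.8% of 21626 such windows, and the share with 2 was not counted. The Colq window also held a MEF2 pattern, which 2.8% of the windows hold, and it overlapped no E-box. Neither window held an N-box (CCGGAA, 12.4% of windows), a GC box (GGGCGG, 36.4%) or a κB pattern (7.6%). The matches are printed with flanks from GRCm39, with the match in capitals, the plus strand for Ache and the minus strand for Colq.
Ache E-box 1: ttctaccagtgtCAGCTGaagggggtcctc
Ache E-box 2: ttgtcctggttaCAGATGccaaatattagg
Colq E-box 1: tgtcctctttctCATCTGttccatagctgc
Colq MEF2 pattern: ttctgacatcTTAATTTTAAtgtgggcatt
Colq E-box 2: ttttaatgtgggCATTTGacccagtgcctg
The first Ache window lies at chr5:137286070-137286099 and the second at chr5:137286146-137286175. Those of Colq lie at chr14:31299562-31299591, chr14:31299505-31299534 and chr14:31299491-31299520, in the order printed. All 250 bases before the canonical start of Ache lie in exons of longer Ache transcripts, and 31 of the 250 do so in Colq, so these windows may not be the promoters in use in these cells. For Bche and Prima1 each window held 2 E-boxes and no MEF2, N-box or κB pattern, with 2 GC boxes in Bche and 1 in Prima1.

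Of the 5 subunit genes of the muscle acetylcholine receptor, 4 were tested and 0 were DEGs in edgeR (0 in DESeq2), with 3 at an unadjusted p under 0.05. The median log2 fold change was -0.17, against -0.002 over all genes tested. Chrna1, the subunit that binds acetylcholine, had 19646 and 22569 counts in control and 19946 and 19230 after EDA-A2, with a log2 fold change of -0.16 (SE 0.07, adjusted p = 0.303, edgeR) that was -0.24 without control replicate 1 and -0.07 without control replicate 2. The values of Chrnd, Chrng and Chrnb1 were -0.24, -0.18 and -0.02, and Chrne, the subunit of adult synapses, had 0 to 3 counts. Of 16 other acetylcholine receptor genes 4 were tested and 7 were at 0 in all libraries. Of those tested 0 rose and 1 fell, beside 2.45% and 2.13% of all genes tested. Chrna9 fell, with 91 and 67 counts in control and 31 and 45 after EDA-A2 (log2 fold change -1.11, SE 0.28, adjusted p = 0.032, edgeR), and the values of Chrm4, Chrnb2 and Chrm3, which did not pass, were 0.53, -0.29 and -0.13.

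Genes for proteins that bind the collagen-tailed enzyme, or act beside those that do, fell or did not pass. Of the 6 basal lamina and membrane partners, all tested, 2 fell and 0 rose, with a median log2 fold change of -0.14. Over all genes tested, 2.13% fell and 2.45% rose. Musk, the receptor kinase of the postsynaptic membrane that also binds ColQ, had 3407 and 3206 counts in control and 2692 and 2758 after EDA-A2, and fell by 0.33 on the log2 scale (SE 0.07, adjusted p = 0.0117, edgeR). Lrp4, the agrin receptor and partner of MuSK, fell by 0.28 (adjusted p = 0.0437, edgeR). Lamb2 had a value of -0.22 and Agrn of -0.06, and neither passed. Hspg2 and Dag1, the rest of this list, had values of -0.01 and 0.01 and did not pass.

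Of 16 postsynaptic genes of the muscle fibre 15 were tested, 1 rose and 1 fell, beside 2.45% and 2.13% of all genes tested. The median was -0.12. The gene that rose was Ufsp1, described above with the Ache locus. Sntb1, a syntrophin of the dystrophin complex, had 12598 and 12976 counts in control and 10959 and 10160 after EDA-A2, and fell by 0.33 (adjusted p = 0.0102, edgeR). Dok7, the cytoplasmic activator of MuSK, had a value of -0.29 and did not pass. Col13a1, another synaptic collagen, was below the filter with 16 and 7 counts in control and 3 and 0 after EDA-A2.

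Chat, the enzyme of acetylcholine synthesis, and Slc18a3, its vesicular transporter, had 0 counts in all libraries. Of the 14 genes of this list 10 were tested, 2 fell and 0 rose, beside 2.13% and 2.45% of all genes tested. The median was 0.03. Chka, a choline kinase, fell by 0.33 (adjusted p = 0.0355, edgeR), and Acss2, an acetyl-CoA synthetase, fell by 0.35 (adjusted p = 0.0412, edgeR). The choline transporter genes Slc44a1 and Slc44a3 had values of 0.24 (SE 0.08) and 0.39 (SE 0.23) and did not pass. With each library left out in turn they lay between 0.15 and 0.34 and between 0.056 and 0.84.

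Enzymes and the chaperone that collagens need for assembly had values near 0. All 9 were tested, 0 were DEGs in edgeR (0 in DESeq2, and 0 at an unadjusted p under 0.05), and the median was -0.01. Serpinh1, the collagen chaperone, had 31236 and 31723 counts in control and 28919 and 30893 after EDA-A2, a log2 fold change of -0.13 that did not pass. P4ha3, P4ha2 and Plod3 had values of 0.20, -0.07 and 0.07.

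Among 17 relatives that share the cholinesterase fold, 5 were tested and 5 were at 0 in all libraries. Of those tested 1 rose and 0 fell, beside 2.45% and 2.13% of all genes tested. Ces2c, a carboxylesterase, rose from 49 and 25 counts in control to 84 and 87 after EDA-A2 (log2 fold change 1.15, SE 0.29, adjusted p = 0.0347, edgeR). Ces2g and Ces2e, at 0.56 and 0.54, and Tg, at -0.37, did not pass, and with 1 control library left out Ces2g was at 0.31 or 0.87 and Ces2e at 0.15 or 1.11. The carboxylesterase genes of this family are close copies, so how reads were divided among them is uncertain.

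Of 15 transcription factors of muscle and synapse genes, all tested, 1 rose and 1 fell, beside 2.45% and 2.13% of all genes tested. The median was -0.02. Myf6, a myogenic factor of differentiated fibres, had 220 and 250 counts in control and 157 and 158 after EDA-A2, and fell by 0.63 (adjusted p = 0.0195, edgeR). Egr1, an immediate early gene, rose by 0.32 (adjusted p = 0.0441, edgeR). Gabpb1, part of the factor that binds the N-box, and Mef2a had values of 0.30 and 0.20 and did not pass.

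These calls were less stable than those of Ache and Colq. Of the 10 list genes that were DEGs, 10 were called with the replicate block, 7 with scaling by total counts, 4 in DESeq2 (Ufsp1, Musk, Lrp4 and Sntb1) and 0 when no filter on low counts was used. Without EDA-A2 replicate 1 only Ufsp1 and Sntb1 were called, without EDA-A2 replicate 2 only Ufsp1 and Chrna9, and without either control library 0, where edgeR called no gene at all. The sign of all 10 was kept in these fits. Without control replicate 1 Ces2c was at 1.73 and Acss2 at -0.20, and without control replicate 2 Ces2c was at 0.73.

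**Figure D4:**
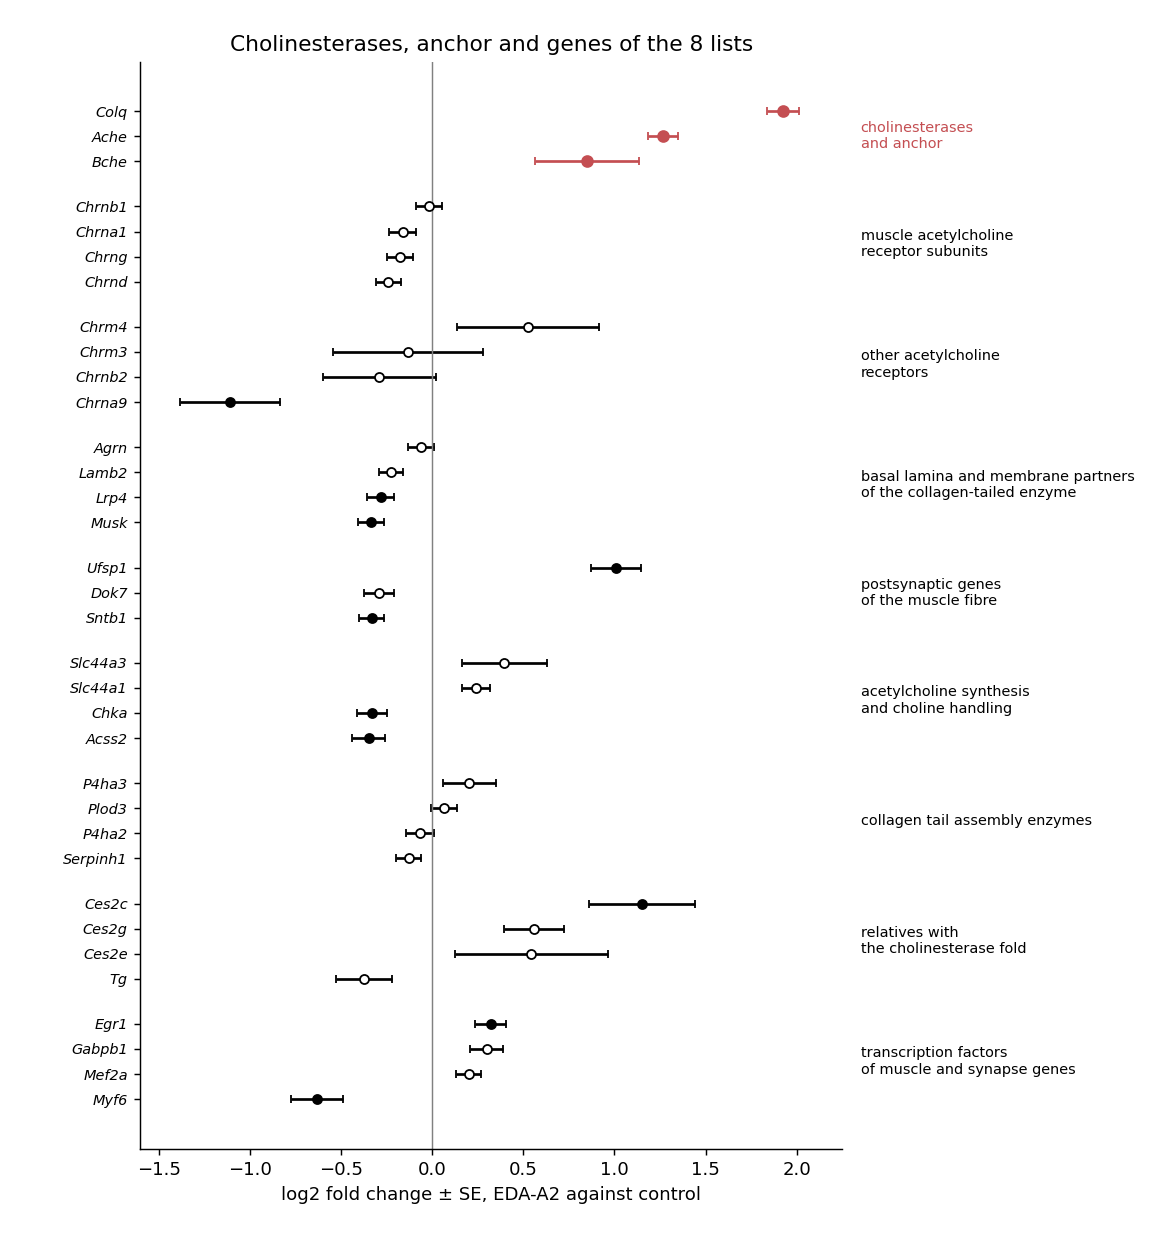
Fitted log2 fold change ± SE (EDA-A2 against control) of Colq, Ache and Bche in red and of the named genes of the 8 lists in black, with filled black points for DEGs. Apart from Ufsp1 at 1.01 and Ces2c at 1.15, the DEGs shown in black lie between -1.11 and 0.32, and Colq and Ache lie at 1.92 and 1.27.

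Cells that could bring their own cholinesterases or anchors were looked for by their markers. Sox10 and Cdh19, which define Schwann cells, had 0 counts in all libraries, and the summed level of that list of 6 genes was 154 and 171 CPM in control and 149 and 146 CPM after EDA-A2. Of its 2 genes tested 0 were DEGs in edgeR and 0 in DESeq2, with 1 at an unadjusted p under 0.05. The neuronal genes Rbfox3 and Elavl4 had 0 counts in all libraries. The summed level of the 5 neuronal genes was 47.5 and 53.5 CPM in control and 74.5 and 68.8 CPM after EDA-A2, of which Tubb3, a tubulin, rose by 0.45 as 1 DEG of 2 tested. Fibroblast markers summed to 1628 and 1725 CPM in control and 1639 and 1642 CPM after EDA-A2, with Lum and Thy1 at 0. Most of that sum was Col3a1, with 38820 and 45682 counts in control and 43050 and 42518 after EDA-A2. Its log2 fold change was -0.04, and that of Pdgfra was 0.16. Col1a1 and Dcn differed in sign, at -0.46 and 0.48, and the controls of Col1a1 were apart, at 9004 and 5046 counts. Of the 4 tested 0 were DEGs in edgeR and 0 in DESeq2, with 2 at an unadjusted p under 0.05.

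The 5 genes of dividing cells, all tested, summed to 674 and 815 CPM in control and 790 and 765 CPM after EDA-A2. The 4 endothelial genes summed to at most 1.26 CPM and the 4 macrophage genes to at most 3.06 CPM. Among these 3 lists 0 genes were DEGs in edgeR, 0 in DESeq2 and 0 at an unadjusted p under 0.05, with 1 gene tested in each of the endothelial and macrophage lists.

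Profiles over the 4 libraries were compared between each gene and 13064 protein-coding genes, by the root mean square distance of log2 CPM values centred on their mean. Nearest to Ache were Nfe2l3 (0.05), Mymx (0.06) and Xpnpep2 (0.06). Nearest to Colq were Nfkb2 (0.06), Mmp9 (0.09) and Rgs2 (0.10). Nearest to Bche were Dcaf12l1 (0.04), Zfp750 (0.05) and Cdkl2 (0.06). The distance between Ache and Colq was 0.34. Of the genes compared, 209 were nearer to Ache than Colq was and 38 nearer to Colq than Ache was. Bche was nearer to Ache than Colq was, at 0.32, with 164 genes nearer still, and lay 0.56 from Colq. The 4 points of a profile share 2 conditions and their libraries, so the distances are a description.

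**Figure D5:**
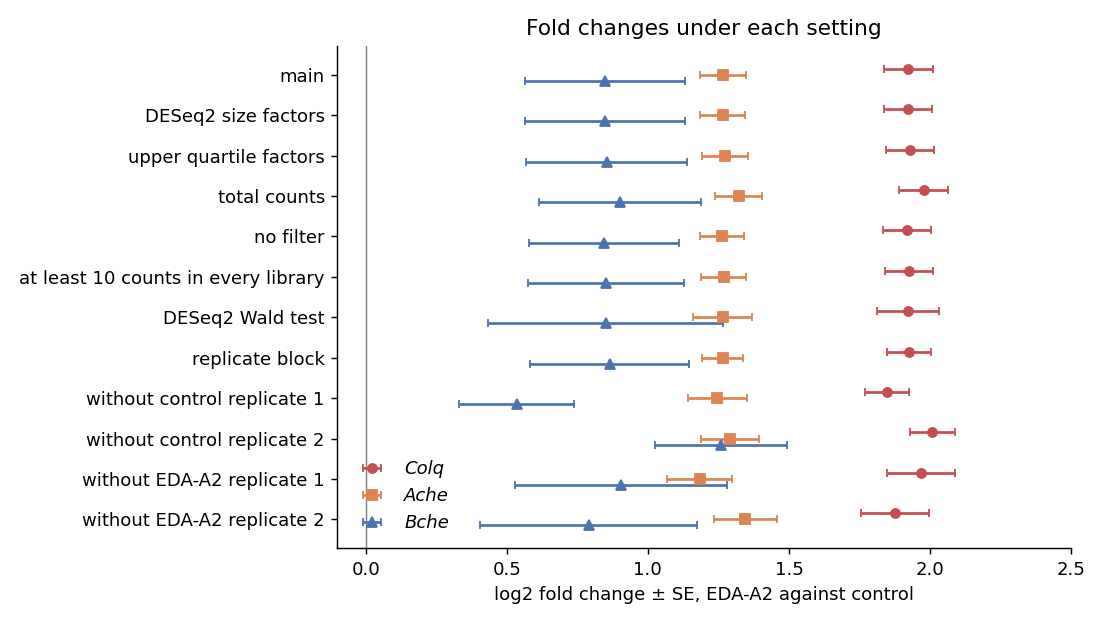
Fitted log2 fold change ± SE (EDA-A2 against control) of Colq, Ache and Bche under each scaling, filter, tool and left-out library. Colq lies between 1.85 and 2.01 and Ache between 1.18 and 1.34 throughout, whereas Bche ranges from 0.54 to 1.26.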

How the data were processed

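The authors trimmed reads with Trim Galore 0.6.5, mapped them to GRCm39 with STAR 2.7.3a and counted read pairs per gene with HTSeq 0.11.1, after checks in FastQC 0.11.9 and MultiQC 1.12 (versions per the submitters' processing notes). The annotation release and strand option are not given in the sources used here. The deposited tables, 1 for each library, hold raw counts by Ensembl gene that were not normalized. HTSeq's 5 summary lines held 12.2 to 13.0% of pairs and were not used in any fit.

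Ensembl IDs were paired with symbols by GENCODE M39 (52610 of 53647 matched). Counts were fitted in R 4.3.3 with edgeR 4.0.16 (TMM, glmQLFit, glmQLFTest, and filterByExpr at min.count 10 and min.total.count 15) with condition as the only term, over all 4 libraries. Benjamini-Hochberg adjustment ran over 15173 genes, with a threshold of 0.05. TMM factors were 0.972 to 1.026 and the common dispersion was 0.00384. Levels per length used the union of annotated exons. A count of 0 allows up to 3 counts, or 0.101 to 0.102 CPM, for counting error only. Profiles used log2 CPM with a prior count of 2.

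The 4 genes, the lists of genes and the tests were chosen with earlier results of these data known. Named are the 4 genes, the 4 lowest p-values and any DEG of each pathway list, the nearest 2 protein-coding genes on each side, genes that overlap a locus, and the 3 nearest profiles. The values of 1 gene that this rule names are not reported here. Genes below the filter or at 0, marker genes, Hspg2 and Dag1 were named as well after their values were seen. Alternatives were other scaling (DESeq2 size factors, upper quartile, total counts), a Wald test in DESeq2 1.42.0, no filter, a filter of 10 counts in all libraries, a replicate block, the longest transcript as length, and leaving out each library. The fits were tested on simulated data.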

Additional observations from a re-analysis of the deposited data

How the results depend on the processing

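Values below are on the log2 scale or are counts of DEGs. With all libraries, Ache and Colq were DEGs under every scaling, filter and tool tried and with the replicate block, where 2 of the 4 genes were called. With each library left out in turn, the number called was 0 to 2, Ache lay between 1.18 and 1.34, Colq between 1.85 and 2.01 and Bche between 0.54 and 1.26. The value was 0 without either control library, a fit in which the lone control is assumed to vary like the treated libraries, and in which edgeR called no gene, with 2179 and 2449 genes at an unadjusted p under 0.05. The cause was not tested. Bche was not called in any fit. Prima1 was fitted only with no filter. Ache made up 98.4% of the summed level of both enzymes after EDA-A2 by the longest transcript, against 97.9%.

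Counts over lists moved more. With no filter, which tested 25545 genes, 0 were called in the lists of other receptors, basal lamina and membrane partners, postsynaptic genes, choline handling, relatives and transcription factors, and 64 genes were higher and 22 lower in all. With DESeq2 (294 higher, 271 lower) 0 were called among other receptors, choline handling, relatives and transcription factors. Upper quartile factors left 1 partner and 1 choline gene. Total counts, which moved the median of all genes to 0.05 and gave 485 higher and 194 lower, left 1 partner and 0 choline genes and called 4 transcription factors. The replicate block (537 higher, 529 lower) called 1 receptor subunit, 4 postsynaptic genes and 2 relatives. Whether the numbers pair the samples is not given by the labels, and the correlation of 0.06 between same-numbered deviations cannot settle it. Leaving out libraries gave 0 to 1 other receptors, 0 to 3 postsynaptic genes, and 0 to 0 in the lists of partners, choline handling, relatives and transcription factors. The cause was not tested.

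For 47 other named genes, settings with all libraries left sign and side of the threshold as they were in 288 cases, most of them genes that were not DEGs, lost a call in 28, gained one in 9 and turned the sign in 2, which were Chrnb1 at 0.039 and Asb2 at 0.012 with total counts. Leaving out a library left 126 as they were, lost a call in 55 and turned 7. The ranges of these were -0.060 to 0.033 for Chrnb1, -0.49 to 0.36 for Chrm3, -0.16 to 0.032 for P4ha2, -0.014 to 0.14 for Plod3, -0.042 to 0.22 for Hacl1 and -0.18 to 0.11 for Asb2, all genes that were not DEGs. With 2 libraries per condition the spread of a gene is known poorly, and low counts limit Bche and Prima1.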
